A study of Mus musculus with 6 samples.

Results

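The genes described here are 10 core members of the antioxidant response that the transcription factor NRF2 directs, namely Nfe2l2, Keap1, Nqo1, Hmox1, Gclc, Gclm, Txnrd1, Srxn1, Slc7a11 and Gsr. They were chosen by gene symbol, not by their values, and each symbol matched 1 of the 47719 gene identifiers measured. Levels are FPKM, fragments scaled for transcript length and for the total of mapped fragments, so levels can be compared between genes. A comparison between mice further assumes libraries of like composition, and whether the values were normalized between libraries is not stated. Of the 10 members, 9 had a mean of at least 1 FPKM over the mice and were among the 13818 genes tested. Slc7a11, with a mean of 0.359 FPKM, was below that limit.

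The samples were prostates, each labelled with the number of 1 animal, from 6 mice of the strain B6.129S4-Trp53tm3.1Tyj/J, all about 3 months old and all collected 6 h after 5 Gy of whole-body irradiation. Mice 39 and 41 were wildtype (Trp53+/+), mice 37 and 40 were heterozygous (Trp53R270H/+) and mice 47 and 49 were homozygous (Trp53R270H/R270H) for R270H, a missense change in the DNA binding domain of p53. The comparison asks how 1 or 2 copies of the mutant allele alter transcript levels when p53 has been stabilized by radiation. No unirradiated mouse was included, so the values describe irradiated prostates only. The allele was inherited and was not limited to the prostate by a tissue-specific promoter or recombinase. In bulk tissue, fewer cells of a type and less RNA per cell cannot be told apart.

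NRF2, the product of Nfe2l2, is held at a low level by KEAP1, which presents it to a CUL3 ubiquitin ligase for degradation. Electrophiles and oxidants modify cysteines of KEAP1, after which newly made NRF2 accumulates, pairs with a small MAF protein and binds antioxidant response elements in the control regions of its targets. These targets make glutathione, regenerate reduced glutathione and thioredoxin, and detoxify quinones and haem. The control by KEAP1 acts on the protein, so the Nfe2l2 transcript level is not a measure of NRF2 activity.

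The RefSeq windows from 250 bases before to 50 bases after an annotated start (GRCm38.p6) covered 7 of the 10 members, which were Nfe2l2, Keap1, Nqo1, Gclm, Txnrd1, Srxn1 and Slc7a11. Hmox1, Gclc and Gsr had no entry. The core of the antioxidant response element, TGACNNNGC, was searched on both strands and was found in a window of 4 of these 7 members. Across all 32851 windows 12.4% held it, and 14% of the 27025 genes had it in at least 1 window. The form TGACTCAGC, which is a subset of the core, was in 0 of the members' windows and in 0.454% of all windows. Elements outside these windows were not searched, and no link between a match and a member's pattern across the genotypes was tested. The 4 matching stretches are shown so that the letters near an annotated start can be compared between members. The capitals mark the match to the core.
Nfe2l2: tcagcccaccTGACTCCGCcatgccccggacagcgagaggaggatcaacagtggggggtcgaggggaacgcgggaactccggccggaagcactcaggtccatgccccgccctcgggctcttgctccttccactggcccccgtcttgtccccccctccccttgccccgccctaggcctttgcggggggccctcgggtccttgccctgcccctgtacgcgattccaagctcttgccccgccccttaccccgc
Gclm: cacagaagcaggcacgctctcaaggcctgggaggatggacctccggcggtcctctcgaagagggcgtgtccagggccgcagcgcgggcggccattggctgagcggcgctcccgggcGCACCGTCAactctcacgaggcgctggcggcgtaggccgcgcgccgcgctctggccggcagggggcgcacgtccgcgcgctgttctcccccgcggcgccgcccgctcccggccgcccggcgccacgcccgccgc
Txnrd1: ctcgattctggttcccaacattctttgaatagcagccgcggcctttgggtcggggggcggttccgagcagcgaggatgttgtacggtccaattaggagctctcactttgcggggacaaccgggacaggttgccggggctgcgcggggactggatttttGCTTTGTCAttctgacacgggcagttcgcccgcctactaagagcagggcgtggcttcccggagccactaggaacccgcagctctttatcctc
Srxn1: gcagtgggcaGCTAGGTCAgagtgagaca
The Nfe2l2 stretch is chr2:75704664-75704913 on the minus strand, and its match, TGACTCCGC, begins 240 bases before the start and reads in the direction of the gene. The Gclm stretch is chr3:122245307-122245556 on the plus strand, with the match 134 bases before the start and on the opposite strand, where it reads TGACGGTGC. The Txnrd1 stretch is chr10:82858956-82859205 on the plus strand and belongs to the second of the 3 annotated starts of the gene, with the match 92 bases before that start and reading TGACAAAGC on the opposite strand. The Srxn1 stretch is chr2:152105542-152105570 on the plus strand and lies after the start, so only 29 bases are shown, with TGACCTAGC on the opposite strand. A match of these letters is a description of the sequence and not a measured binding site.

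Before the members are compared, several features of the 6 libraries bear on them. The FPKM of a mouse summed to between 518671 and 636407, 13452 to 13827 genes reached 1 FPKM, and the relative depth estimated from the lowest values ran from 0.787 in mouse 47 to 1.08 in mouse 49. Trp53 itself, whose transcript level a missense change need not alter, had 17.3 to 21.4 FPKM with overlap between all genotypes. Cdkn1a, the cell cycle inhibitor that p53 activates, had 109 and 101 FPKM in the wildtype, 40.5 and 41.4 in the heterozygous and 6.70 and 6.17 in the homozygous mice, an order that matches the genotype labels. Homozygous mouse 47 stood apart from the other 5 mice. Its Pbsn, the probasin secreted by luminal cells, was 257 FPKM against 7329 to 11512 in the other mice. The 6 luminal markers summed to 12428 and 12783 FPKM in the wildtype and to 9496 and 9129 in the heterozygous mice. In the homozygous mice they summed to 1048 (mouse 47) and 8227 (mouse 49). The luminal sum and Pbsn thus fell with the number of mutant alleles without overlap, and leaving out mouse 47 does not remove that order. The 9 macrophage markers summed to 102 FPKM in mouse 47 against 167 to 266 in the other mice, with Cd163 at 0.670 against 3.51 to 6.44. The 7 skeletal muscle markers summed to 1295 and 1944 FPKM in wildtype, 3664 and 3882 in heterozygous and 4440 and 3946 in homozygous animals. The 6 seminal vesicle markers summed to 3363 FPKM in wildtype mouse 39 and to 30292 to 53789 in the others. In mouse 47 their sum was 42604, of which Svs6 gave 26147 FPKM, against 28.6 to 1021 for Svs6 in the other mice. Svs2, Svs4 and Svs5 were listed at 0 in mouse 47, as was Svs2 in mouse 49. Such a 0 can be a failed estimate. Every value of the 6 mice carried the status OK, and the cause was not tested. The part of these tissue differences in the members' values was not tested. The homozygous against wildtype fold changes of the 9 tested members are given with and without mouse 47.

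No member passed the test for a difference between genotypes. With limma, a linear model that shares the spread between genes, on log2(FPKM + 0.1) and with adjustment over the 13818 genes tested, 0 of 9 members had an adjusted p under 0.05 in any of the 3 comparisons or in the F-test of the 3 genotypes, and 0 of 9 passed in any alternative. In the F-test on each gene alone 0 of all tested genes passed, Cdkn1a included, so that alternative cannot set the members apart from other genes. The share of all tested genes that passed was 0% in heterozygous against wildtype mice, 0.384% in homozygous against wildtype mice, 0.0145% in homozygous against heterozygous mice and 0.101% in the F-test. At an unadjusted p under 0.05, the count of members was 0 of 9 in heterozygous against wildtype mice, where the share of all tested genes was 6.87%. It was 3 of 9 in homozygous against wildtype mice (18.0% of all genes), 3 of 9 in homozygous against heterozygous mice (6.39%) and 2 of 9 in the F-test (11.5%). The 3 in homozygous against wildtype mice were Nfe2l2, Keap1 and Hmox1, all with lower values, and 9.32% of all genes were below that p and lower. That count was 1, Nfe2l2, when mouse 37, 40, 41 or 47 was left out, 0 without wildtype mouse 39, and 2, Hmox1 and Gclc, without homozygous mouse 49.

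Of the 9 members 0 differed by 1.5-fold or more between any pair of genotypes. Of all tested genes 9.25% did so in heterozygous against wildtype mice, 17.3% in homozygous against wildtype mice and 8.85% in homozygous against heterozygous mice, and 8.31% did so with an F-test p under 0.05 before adjustment. The median log2 fold change of the 9 was -0.03 in heterozygous against wildtype mice, -0.07 in homozygous against wildtype mice and -0.13 in homozygous against heterozygous mice. Over all genes tested the same medians were -0.01, -0.04 and -0.03. The median size of the difference, without its sign, was 0.28 for the members and 0.23 for all genes in homozygous against wildtype mice. In homozygous against wildtype mice the members lay on both sides of 0, from -0.55 for Hmox1 to 0.34 for Gclc.

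**Figure D1:**
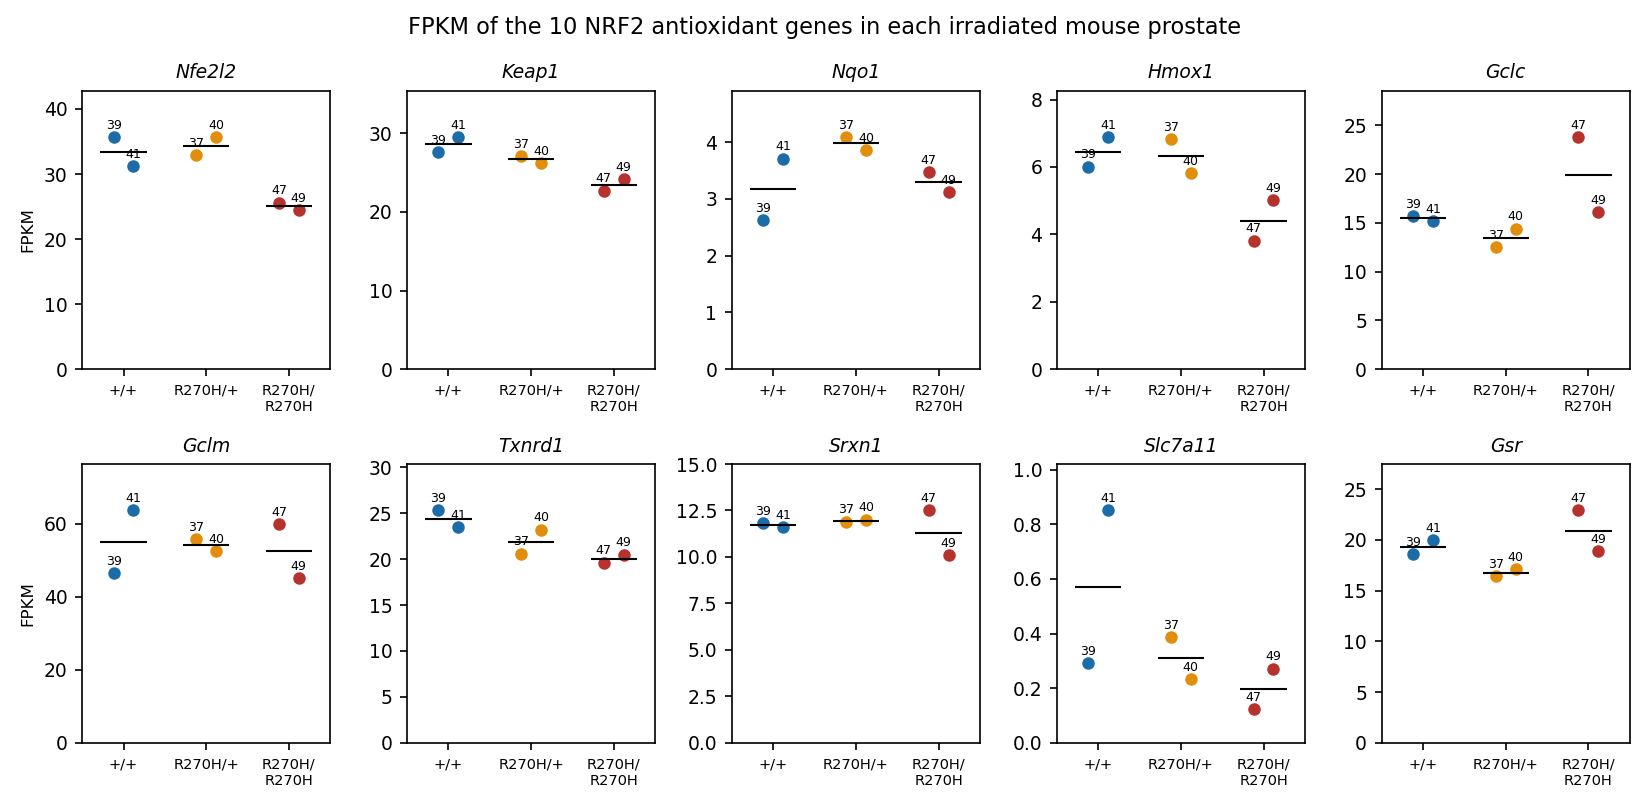
FPKM (vertical axes, linear and starting at 0) of each of the 10 members in the 6 mice, grouped by Trp53 genotype, with the mouse's number above its point and a bar at the mean of the 2 mice. Both homozygous mice lie below the other 4 for Nfe2l2 (24.5 and 25.6 FPKM), Keap1, Hmox1 and Txnrd1, and above them for Gclc alone.

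The transcript of the regulator itself was lower in the homozygous mice than in every other mouse. Nfe2l2 (ENSMUSG00000015839, chr2:75675513-75704641 on the minus strand, 5 exons in its longest transcript) had 35.7 and 31.2 FPKM in the wildtype, 32.9 and 35.7 in the heterozygous and 25.6 and 24.5 in the homozygous animals. The wildtype and heterozygous values overlapped, and the homozygous values lay below both groups. The genotype means were 33.5 ± 3.12 FPKM (wildtype), 34.3 ± 1.99 FPKM (heterozygous) and 25.1 ± 0.793 FPKM (homozygous; SD, n = 2 mice each, as for every mean here). On the log2 scale the difference was 0.04 in heterozygous against wildtype mice (limma adjusted p = 0.977) and -0.41 in homozygous against wildtype mice (standard error 0.12, 95% interval -0.71 to -0.11, limma adjusted p = 0.199). It was -0.45 in homozygous against heterozygous mice (limma adjusted p = 0.707). The difference between homozygous and wildtype mice was as large without mouse 47, at -0.44, and across all 15 alternatives it stayed between -0.51 and -0.30.

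Keap1, whose protein marks NRF2 for degradation, was also lowest in the homozygous mice, but by less. Keap1 (ENSMUSG00000003308, chr9:21229730-21239361 on the minus strand) had 27.6 and 29.5 FPKM in the wildtype, 27.1 and 26.2 in the heterozygous and 22.7 and 24.1 in the homozygous mice. No 2 groups overlapped, and the values were ordered by the number of mutant alleles, which held for 2 of the 9 members tested (Keap1 and Txnrd1) and for 4.98% of all genes tested in this direction, and for 0 of 9 and 3.85% in the rising direction. The homozygous against wildtype log2 fold change was -0.28 (standard error 0.11, limma adjusted p = 0.263), and -0.24 without mouse 47. An antisense gene, Gm16754, overlaps Keap1, and it had at most 0.156 FPKM in any mouse. The ratio of Nfe2l2 to Keap1 transcripts was 1.29 and 1.06 in the wildtype, 1.21 and 1.36 in the heterozygous and 1.13 and 1.02 in the homozygous mice, so the homozygous and wildtype ranges overlapped.

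**Figure D2:**
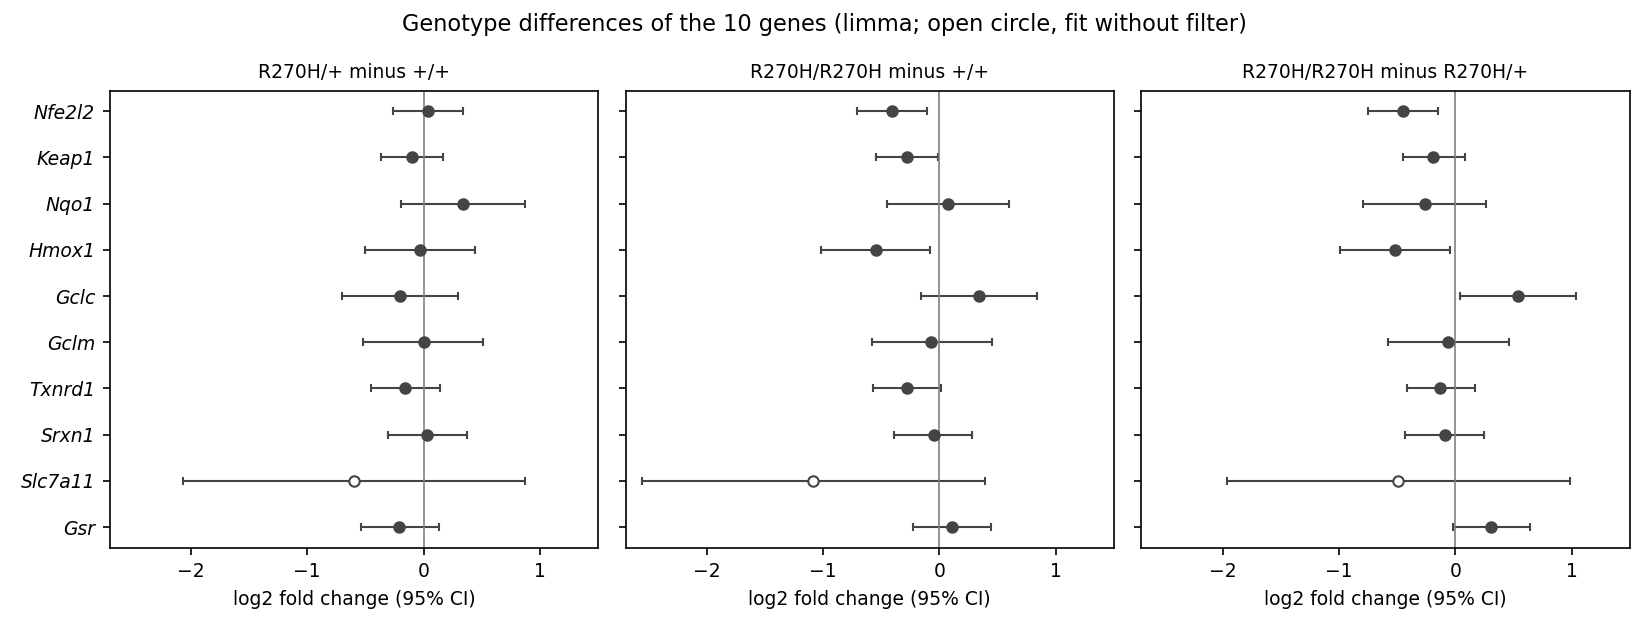
Log2 fold change on the log2(FPKM + 0.1) scale with its 95% confidence interval from limma (horizontal axes) for the 10 members in the 3 genotype comparisons. Nfe2l2 and Hmox1 lie below 0 with intervals that leave out 0 in both comparisons of homozygous mice (-0.41 and -0.55 against wildtype), and the open circle marks Slc7a11 from the fit without a filter on low values.

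Among the genes of glutathione synthesis, the subunits of the rate-limiting enzyme had different patterns. Gclc encodes the catalytic subunit of glutamate-cysteine ligase, and Gclm the modifier subunit that raises its efficiency. Gclc (ENSMUSG00000032350, chr9:77754535-77794485 on the plus strand) had 15.7 and 15.2 FPKM in the wildtype, 12.5 and 14.4 in the heterozygous and 23.8 and 16.1 in the homozygous mice. The heterozygous mice were the lowest and the homozygous mice the highest, with mouse 47 far above mouse 49. Against wildtype, the log2 fold change was 0.34 in the homozygous mice (standard error 0.20, limma adjusted p = 0.424) and 0.06 without mouse 47. Against heterozygous mice it was 0.54 (95% interval 0.04 to 1.04, limma adjusted p = 0.707) and 0.26 without mouse 47. The higher mean of Gclc in homozygous than in wildtype mice was thus set mainly by mouse 47. Mouse 49, at 16.1 FPKM, was also above the wildtype and heterozygous mice. Mouse 47 had a luminal marker sum of 1048 FPKM, and the part of that in its Gclc value was not tested.

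Gclm (ENSMUSG00000028124, chr3:122245557-122270732 on the plus strand) was the most abundant of the 10 members. Its values were 46.5 and 63.7 FPKM in the wildtype, 55.9 and 52.6 in the heterozygous and 59.9 and 45.1 in the homozygous mice. The 3 groups overlapped, and the spread inside the wildtype pair (0.45 on the log2 scale) and the homozygous pair (0.41) was larger than any difference between genotypes. The log2 fold change was -0.00 in heterozygous mice (95% interval -0.52 to 0.51) and -0.07 in homozygous mice (95% interval -0.58 to 0.45), both against wildtype. With 2 mice per genotype, differences of up to those bounds were thus not excluded. The homozygous value was -0.27 without mouse 47, and it changed sign under quantile normalization and when wildtype mouse 41 or homozygous mouse 49 was left out. Gm6061, a transcribed processed pseudogene on the same strand, overlaps Gclm and reached 0.961 FPKM.

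The ratio of Gclm to Gclc transcripts, a within-mouse measure, was 2.97 and 4.18 in the wildtype, 4.46 and 3.66 in the heterozygous and 2.52 and 2.81 in the homozygous mice. Both homozygous mice were below the other 4, mouse 49 included. With 2 mice against 2, an exact two-sided permutation test cannot give a p under 0.333, which is the value here for homozygous against wildtype mice. The ratio of Gclc to Nfe2l2 transcripts was 0.439 and 0.487 in the wildtype, 0.381 and 0.403 in the heterozygous and 0.928 and 0.656 in the homozygous mice (exact permutation p = 0.333). This separation follows from the single transcripts and adds no further result, because the homozygous pair had the highest Gclc and the lowest Nfe2l2 of the 6 mice.

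Glutathione synthetase, which completes the tripeptide, had the opposite order to Gclc in homozygous mice. Gss had 25.4 and 38.8 FPKM in the wildtype, 29.2 and 19.9 in the heterozygous and 12.5 and 15.6 in the homozygous mice, with a homozygous against wildtype log2 fold change of -1.16 (standard error 0.28, limma adjusted p = 0.157). As a ratio that is 0.447 of the wildtype level, and it was 0.499 without mouse 47 (limma adjusted p = 0.416). The ratio of Gclc to Gss was 0.617 and 0.393 in the wildtype, 0.430 and 0.722 in the heterozygous and 1.90 and 1.03 in the homozygous mice. Both homozygous mice had the highest Gclc and the lowest Gss, so their separation from the other 4 mice in that ratio was fixed by the single values.

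**Figure D3:**
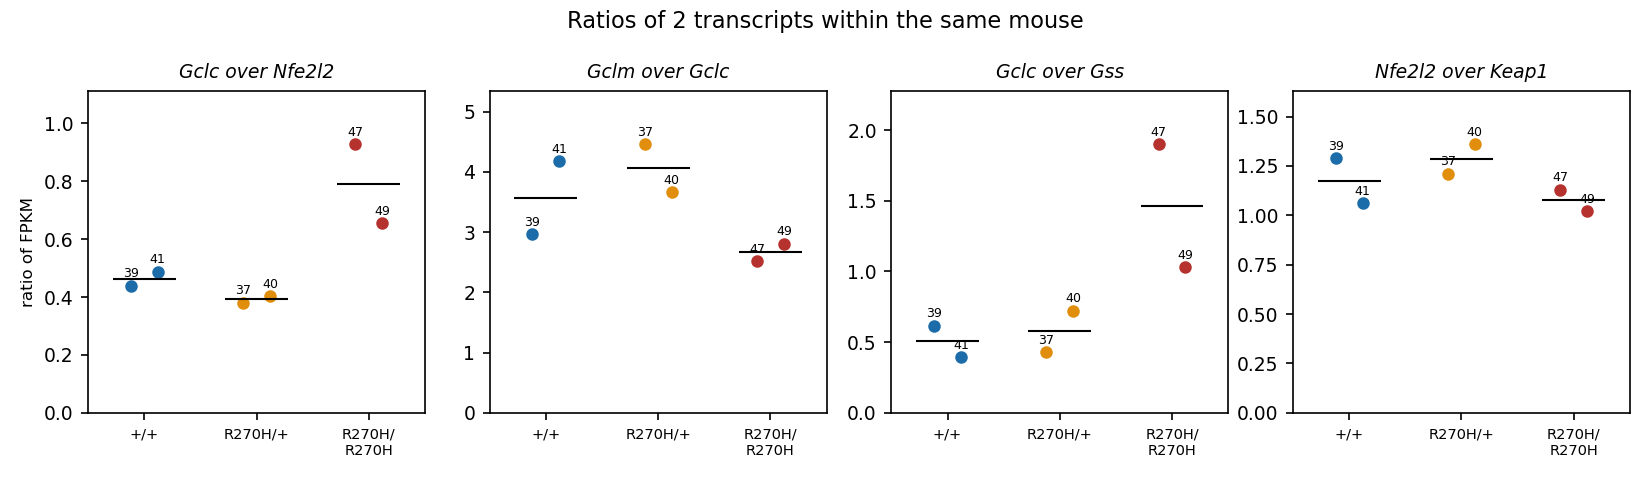
Ratio of the FPKM of 2 transcripts within the same mouse (vertical axes, starting at 0) by Trp53 genotype, with mouse numbers and a bar at the mean of the 2 mice. The homozygous mice are above the other 4 for Gclc over Nfe2l2 (0.928 and 0.656) and Gclc over Gss (1.90 and 1.03), below them for Gclm over Gclc, and overlap the wildtype mice for Nfe2l2 over Keap1. For Gclc over Nfe2l2 and Gclc over Gss the separation follows from the levels of the single transcripts.

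Slc7a11 encodes the cystine carrier xCT, which supplies cysteine for glutathione. Slc7a11 (ENSMUSG00000027737, chr3:49892526-50443614 on the minus strand) had 0.291 and 0.851 FPKM in the wildtype, 0.388 and 0.232 in the heterozygous and 0.122 and 0.271 in the homozygous mice. The transcript was near the lower end of detection throughout, and the highest value, in wildtype mouse 41, was 6.95 times the lowest, in mouse 47. In the fit without a filter on low values its homozygous against wildtype log2 fold change was -1.09 (95% interval -2.56 to 0.39, limma adjusted p = 0.512). Slc3a2, the partner chain that carries xCT to the membrane and serves other amino acid carriers too, had 92.5 and 159 FPKM in the wildtype, 139 and 106 in the heterozygous and 82.5 and 86.5 in the homozygous mice (-0.52 on the log2 scale in homozygous against wildtype mice, limma adjusted p = 0.384, and -0.13 without wildtype mouse 41).

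The enzymes that regenerate reduced thiols also differed in pattern, with both homozygous values lowest for Txnrd1 and not for Gsr. Txnrd1, the cytosolic thioredoxin reductase (ENSMUSG00000020250, chr10:82833951-82897712 on the plus strand), had 25.3 and 23.5 FPKM in the wildtype, 20.6 and 23.2 in the heterozygous and 19.6 and 20.5 in the homozygous mice. The values were ordered by allele number without overlap, and the homozygous against wildtype log2 fold change was -0.28 (standard error 0.12, limma adjusted p = 0.289), or -0.25 without mouse 47. Relative to Nfe2l2, Txnrd1 was 0.708 and 0.753 in the wildtype, 0.627 and 0.649 in the heterozygous and 0.763 and 0.838 in the homozygous mice.

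Gsr, which encodes glutathione reductase (ENSMUSG00000031584, chr8:33652523-33698163 on the plus strand), had 18.6 and 20.0 FPKM in the wildtype, 16.4 and 17.1 in the heterozygous and 22.9 and 18.9 in the homozygous mice. As for Gclc, the heterozygous mice were lowest and mouse 47 was highest. Its log2 fold change was -0.21 in heterozygous against wildtype mice (limma adjusted p = 0.865) and 0.11 in homozygous against wildtype mice (limma adjusted p = 0.699), the latter -0.03 without mouse 47. In homozygous against heterozygous mice it was 0.31 (95% interval -0.02 to 0.64, limma adjusted p = 0.707) and 0.17 without mouse 47. The ratio of Gsr to Txnrd1 was 0.738 and 0.852 in the wildtype, 0.796 and 0.735 in the heterozygous and 1.17 and 0.921 in the homozygous mice (exact permutation p = 0.333 for homozygous against wildtype mice).

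Srxn1, sulfiredoxin, which repairs overoxidized peroxiredoxins (ENSMUSG00000032802, chr2:152105516-152111376 on the plus strand), was the steadiest member. It had 11.8 and 11.6 FPKM in the wildtype, 11.9 and 12.0 in the heterozygous and 12.5 and 10.1 in the homozygous mice. The highest of the 6 values was 1.23 times the lowest, and both of those came from homozygous mice. The difference was 0.03 on the log2 scale in heterozygous against wildtype mice (95% interval -0.31 to 0.37) and -0.05 in homozygous against wildtype mice (95% interval -0.39 to 0.28). The latter was -0.20 without mouse 47.

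Of the detoxifying members, Hmox1 had its lowest values in the homozygous mice, whereas Nqo1 overlapped between homozygous and wildtype mice. Hmox1 encodes the inducible haem oxygenase and is abundant in macrophages that clear red cells (ENSMUSG00000005413, chr8:75093621-75100589 on the plus strand). It had 6.01 and 6.89 FPKM in the wildtype, 6.83 and 5.82 in the heterozygous and 3.81 and 5.01 in the homozygous mice. Both homozygous values were below all others, and the lowest came from mouse 47. Its log2 fold change was -0.55 in homozygous against wildtype mice (standard error 0.19, 95% interval -1.02 to -0.08, limma adjusted p = 0.234) and -0.36 without mouse 47. Against heterozygous mice it was -0.52 (limma adjusted p = 0.707) and -0.33 without mouse 47.

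The summed FPKM of the macrophage markers, whose part in the Hmox1 values was not tested, was lowest in mouse 47 (102) and highest in mouse 49 (266), with 173 and 167 in the wildtype and 265 and 223 in the heterozygous mice. Hmox2, the constitutive haem oxygenase, differed by -0.15 on the log2 scale in homozygous against wildtype mice. The ratio of Hmox1 to Hmox2 was 0.208 and 0.260 in the wildtype, 0.244 and 0.213 in the heterozygous and 0.157 and 0.195 in the homozygous mice.

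Nqo1, the quinone reductase that is often used as a readout of NRF2 activity (ENSMUSG00000003849, chr8:107388225-107403206 on the minus strand), was low in all mice. It had 2.62 and 3.71 FPKM in the wildtype, 4.09 and 3.86 in the heterozygous and 3.47 and 3.12 in the homozygous mice. The heterozygous mice were highest, and the wildtype mice differed from each other by 0.48 on the log2 scale, more than any 2 genotypes differed in their means. The log2 fold change was 0.34 in heterozygous against wildtype mice (95% interval -0.19 to 0.87, limma adjusted p = 0.862) and 0.07 in homozygous against wildtype mice (limma adjusted p = 0.876). The latter was -0.00 without mouse 47 and changed sign under 3 alternatives.

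Ordered by mean level over the 6 mice, the members ran from Gclm at 54.0 FPKM through Nfe2l2 at 30.9, Keap1 at 26.2, Txnrd1 at 22.1, Gsr at 19.0, Gclc at 16.3, Srxn1 at 11.6, Hmox1 at 5.73 and Nqo1 at 3.48 to Slc7a11 at 0.359. Gclm was above 89.9% of the tested genes in mean level and Nqo1 above 23.5%. The ranges over the mice of Nfe2l2, Keap1, Txnrd1, Gsr and Gclc each overlapped the next, as did those of Hmox1 (lowest 3.81) and Nqo1 (highest 4.09). Gclm lay above Nfe2l2, Srxn1 above Hmox1 and Slc7a11 below Nqo1, each without overlap, and the highest Srxn1 and the lowest Gclc value were both 12.5 FPKM. The difference between the mice of a pair had a median over the 9 tested members of 0.11 (wildtype), 0.09 (heterozygous) and 0.28 (homozygous) in log2 units, while over all genes it was 0.21, 0.19 and 0.22. In the homozygous pair it was largest for Gclc, at 0.56.

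Counted over the 10 members, mouse 47 had the lowest value for 4 and the highest for 3, and it had the lowest value for 25.5% and the highest for 20.5% of all tested genes. Of the 9 tested members, 4 (Nfe2l2, Keap1, Hmox1 and Txnrd1) had both homozygous values below both wildtype values, beside 28.7% of all tested genes, and 1 (Gclc) had both above, beside 21.3%. In heterozygous against wildtype mice 4 members were lower without overlap (19.9% of all genes) and 2 higher (19.2%), and in homozygous against heterozygous mice 5 were lower (24.1%) and 2 higher (18.0%). The 3 comparisons share mice in pairs, so their counts are not independent of each other. In the wildtype mice, mouse 41 had the highest value for 4 members (20.7% of all tested genes), and mouse 39, whose seminal vesicle marker sum was 3363 FPKM, for 1 (19.2%).

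The wider antioxidant system was described with 105 further genes in 10 lists, of which 98 were tested and some stood in 2 lists. Of these 98 genes, 3 had a limma adjusted p under 0.05 in homozygous against wildtype mice, beside 0.384% of all genes, and all 3 were lower. They were Ephx1, and Sesn2 and Cdkn1a, which were listed as p53 targets. All 3 were among the 7 of 98 genes that fell by allele number without overlap, beside 4.98% of all genes. The cause of the Ephx1 difference was not tested. In heterozygous against wildtype mice 0 of 98 passed with limma, and 9 had an unadjusted p under 0.05, beside 6.87% of all genes. In homozygous against wildtype mice 25 of the 98 had an unadjusted p under 0.05 (18.0% of all genes tested), with 9 higher and 16 lower.

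Ephx1, the microsomal epoxide hydrolase and a target of NRF2, fell in homozygous mice, with the heterozygous mice between. It had 239 and 194 FPKM in the wildtype, 121 and 120 in the heterozygous and 42.9 and 39.5 in the homozygous mice, with a homozygous against wildtype log2 fold change of -2.39 (standard error 0.15, limma adjusted p = 0.0118). Without mouse 47 the value was -2.45 with a limma adjusted p of 0.0665, and it lost the call in 6 of the 15 alternatives. Sesn2, sestrin 2, which restrains mTORC1 and protects cells from oxidants, had 35.9 and 35.7 FPKM in the wildtype, 15.1 and 17.1 in the heterozygous and 5.98 and 5.74 in the homozygous mice (log2 fold change -2.59, limma adjusted p = 0.00390, and 0.0460 without mouse 47). The largest difference of a tested member in the same comparison, that of Hmox1, was -0.55.

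The glutathione transferases and other phase 2 enzymes apart from Ephx1 mostly had higher mean values in homozygous mice. Of 20 tested, 18 were above 0 in homozygous against wildtype mice with a list median of 0.25 (all genes, -0.04), 5 were higher at an unadjusted p under 0.05 (8.65% of all genes tested), and 0 were called higher with limma. Without mouse 47, 13 of the 20 were above 0 with a list median of 0.11. Mgst1, a membrane-bound glutathione transferase, had 47.4 and 55.5 FPKM in the wildtype, 70.1 and 79.4 in the heterozygous and 99.7 and 84.5 in the homozygous mice (log2 fold change 0.84, limma adjusted p = 0.115, and 0.72 without mouse 47). Gstm5 had 17.9 and 27.1, 38.1 and 35.9, and 51.9 and 38.5 FPKM in the same order (1.02, limma adjusted p = 0.155, and 0.80 without mouse 47). Gsta4, Gstp2 and Aox1 were the others, at 1.05, 0.88 and 0.61 on the log2 scale (limma adjusted p = 0.241, 0.264 and 0.222), and at 0.77, 0.56 and 0.71 without mouse 47. Without wildtype mouse 39 the Gsta4 value was 0.52, and without wildtype mouse 41 the Gstp2 value was 0.52. The cytosolic transferases of the alpha, mu and pi families have close copies, among which the assignment of fragments is uncertain. The skeletal muscle marker sum was also higher in the heterozygous and homozygous mice than in the wildtype mice, with 6 of its 7 markers higher at an unadjusted p under 0.05 in homozygous against wildtype mice. The 3 endothelial markers summed to 18.7 and 20.3 FPKM in the wildtype, 27.4 and 29.8 in the heterozygous and 24.8 and 31.4 in the homozygous mice, with 2 of 3 higher at that p. The 5 adipocyte markers summed to 408 and 284 FPKM in the wildtype, 346 and 437 in the heterozygous and 637 and 553 in the homozygous mice, with 2 of 5 higher. The part of these tissues in the phase 2 values was not tested.

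**Figure D4:**
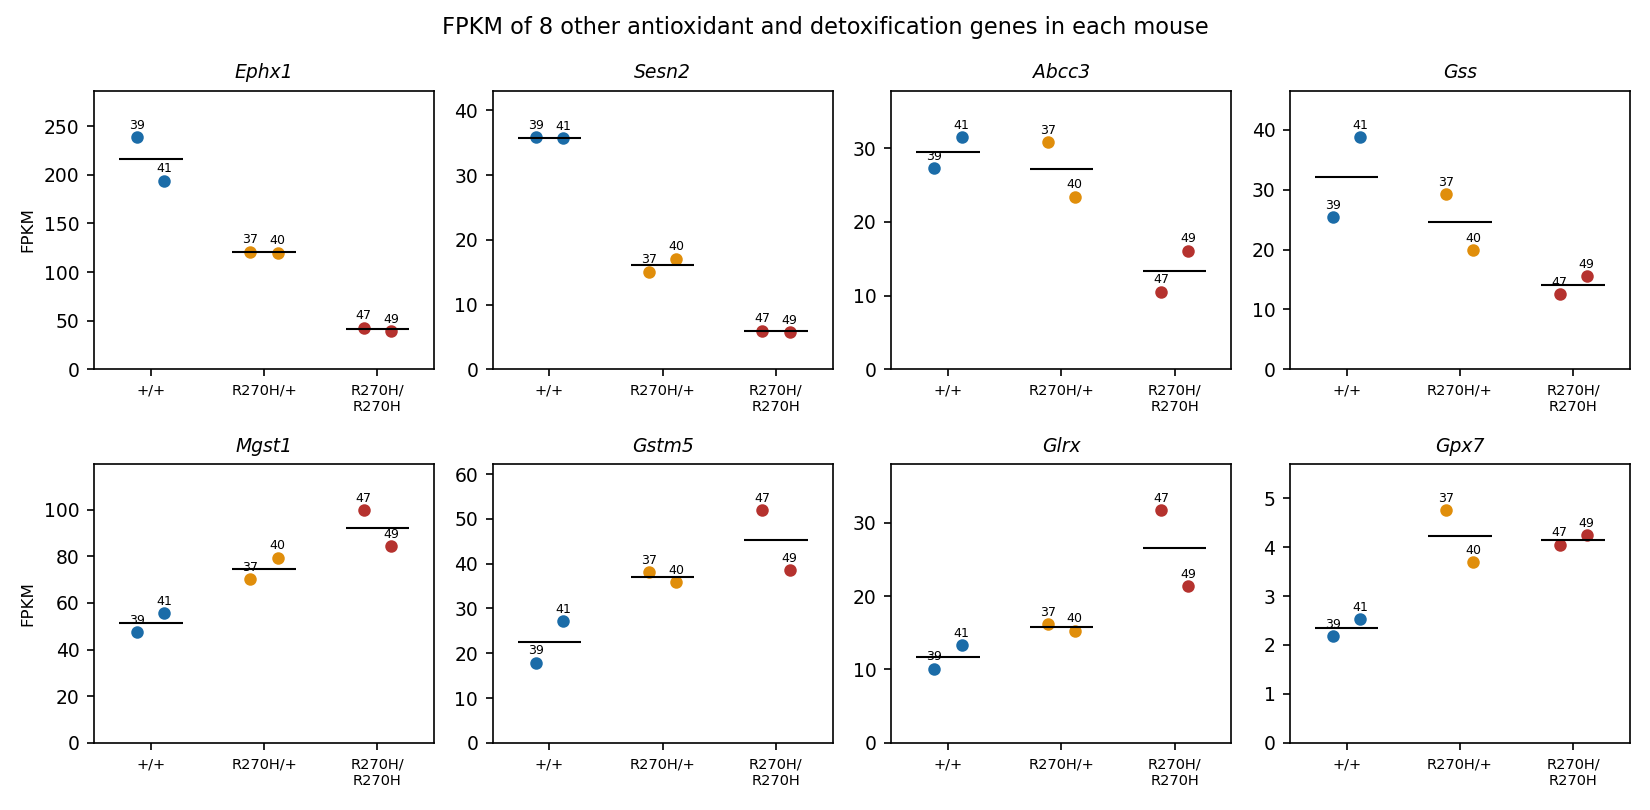
FPKM (vertical axes, linear and starting at 0) of 8 other antioxidant and detoxification genes in the 6 mice by Trp53 genotype, with mouse numbers and a bar at the mean of the 2 mice. Ephx1 and Sesn2 step down from wildtype through heterozygous to homozygous mice (239 and 194, 121 and 120, 42.9 and 39.5 FPKM for Ephx1), while Mgst1, Gstm5 and Glrx step up.

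The genes that control NRF2 included 3 of 12 with an unadjusted p under 0.05 in homozygous against wildtype mice, all lower and none called with limma, beside 9.32% of all genes that were lower at that p. Without mouse 47 the count was 0. Mafk, a small MAF partner of NRF2, had 20.4 and 25.7 FPKM in the wildtype, 22.4 and 20.4 in the heterozygous and 12.6 and 17.8 in the homozygous mice (log2 fold change -0.61, limma adjusted p = 0.229, and -0.36 without mouse 47). Dpp3, which competes with NRF2 for KEAP1, and Nfe2l3, a relative of NRF2, differed by -0.41 and -0.72 on the log2 scale (limma adjusted p = 0.263 and 0.257), and by -0.49 and -0.56 without mouse 47. Sqstm1, the autophagy receptor that also binds KEAP1, had 195 to 262 FPKM in all 6 mice with overlap between wildtype and homozygous mice.

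In the thioredoxin and peroxiredoxin list, 3 of 14 genes had an unadjusted p under 0.05 in homozygous against wildtype mice, a share near the 18.0% of all genes, and 1 did without mouse 47. Glrx, glutaredoxin 1, had 10.1 and 13.3 FPKM in the wildtype, 16.2 and 15.3 in the heterozygous and 31.7 and 21.4 in the homozygous mice (log2 fold change 1.16, limma adjusted p = 0.128, and 0.88 without mouse 47). Txnrd2, the mitochondrial counterpart of Txnrd1, differed by -0.68 (limma adjusted p = 0.193), and by -0.44 without mouse 47. Prdx6 had 2843 and 4389 FPKM in the wildtype, 3559 and 2148 in the heterozygous and 506 and 1762 in the homozygous mice, with a log2 fold change of -1.90 (limma adjusted p = 0.235). As a ratio that is 0.267 of the wildtype level, and it was 0.499 without mouse 47 (limma adjusted p = 0.531).

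In the remaining lists of NRF2 targets 0 genes were called with limma in homozygous against wildtype mice. The 6 enzymes that supply NADPH to Gsr, Txnrd1 and Nqo1 were all below 0 in homozygous against wildtype mice, with values from -0.20 to -0.05 and 0 below an unadjusted p of 0.05. Of all 13818 genes tested, 7597 were below 0. Without homozygous mouse 49, 4 of the 6 enzymes were below 0, and without wildtype mouse 41, 5 were, so the shared direction rested on single mice. The ferritin genes Fth1 and Ftl1, which NRF2 also controls, differed by -0.06 and -0.09. In the list of efflux pumps and other targets, 4 of 10 genes had an unadjusted p under 0.05 in that comparison (18.0% of all genes), 3 lower and 1 higher. Abcc3 had 27.3 and 31.5 FPKM in the wildtype, 30.8 and 23.4 in the heterozygous and 10.5 and 16.1 in the homozygous mice (log2 fold change -1.17, limma adjusted p = 0.136, and -0.86 without mouse 47). Abcc4 (-0.80, limma adjusted p = 0.156, and -0.56 without mouse 47) and Osgin1 (-0.42, limma adjusted p = 0.255) were also lower, while Abcc1 was higher (0.65, limma adjusted p = 0.176). Gpx7 was higher in both mutant genotypes, with log2 fold changes of 0.81 and 0.80 against wildtype (limma adjusted p = 0.413 and 0.164). Of the 4 superoxide dismutase and catalase genes, 0 had an unadjusted p under 0.05 in homozygous against wildtype mice and 1, Sod3, did in heterozygous mice (0.46, limma adjusted p = 0.584).

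Slc7a11, Slc3a2 and Sesn2 are also targets of ATF4, the factor of the amino acid response, so the ATF4 list was set beside them. Of its 10 genes, 9 were below 0 in homozygous against wildtype mice, with a median of -0.54 against -0.04 for all genes, and 1, Sesn2, was called with limma. Without wildtype mouse 41 the median was -0.07 and 6 of the 10 were below 0, and without wildtype mouse 39 it was -1.05 and all 10 were below 0. The list's lower median thus rested on mouse 41. Atf4 itself had 108 FPKM in mouse 39 and 196 in mouse 41, beside 146 and 122 in the heterozygous and 121 and 98.5 in the homozygous mice. Phgdh, which begins serine synthesis, differed by -0.80 (limma adjusted p = 0.164) and Slc7a5, another partner of Slc3a2, by -1.02 (limma adjusted p = 0.224), or by -0.64 and -0.57 without mouse 41. Of the 7 tested p53 targets that act on redox state, 5 had an unadjusted p under 0.05 in homozygous against wildtype mice. Of all genes tested, 18.0% did. Beside Cdkn1a and Sesn2, Sat1 at -0.96 (limma adjusted p = 0.0590) and Aldh4a1 at -0.54 (limma adjusted p = 0.136) were lower. Tigar at 0.60 (limma adjusted p = 0.248) was higher.

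**Figure D5:**
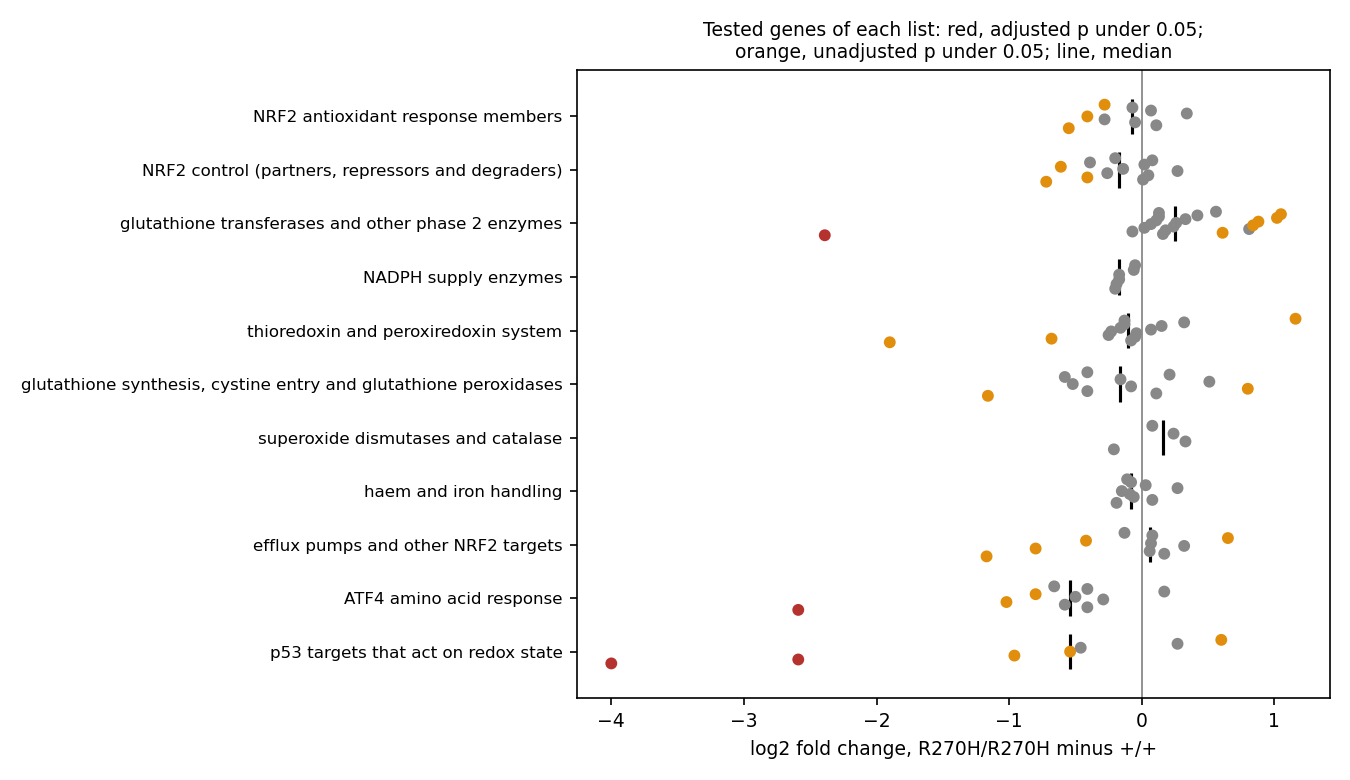
Log2 fold change in homozygous against wildtype mice (horizontal axis) of each tested gene of the members and of the 10 lists, with a line at each list's median; red marks an adjusted p under 0.05 and orange an unadjusted p under 0.05, both from limma. The members lie between -0.55 and 0.34, the phase 2 list has a median of 0.25 with Ephx1 at -2.39, and the red points of the lower lists are Sesn2, which stands in both, and Cdkn1a.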

How the data were processed

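RNA from the prostates of 6 irradiated mice, 2 per Trp53 genotype, was measured. The authors prepared stranded mRNA libraries, sequenced read pairs on an Illumina HiSeq system, aligned them to GRCm38 with HISAT and quantified them with Cufflinks, and they deposited gene-level FPKM for each mouse. FPKM are already scaled for transcript length and for mapped fragments. Tool versions, the annotation and the strand setting of the quantification are not given in the sources used here, and Cuffnorm is named in the submitters' processing notes without a role. Fragment counts were not used, and how many fragments stand behind each value is unknown.

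The values were analysed as log2(FPKM + 0.1) for genes with a mean of at least 1 FPKM, with limma 3.58.1 in R 4.3.3 (1 fit of the 3 genotypes to all 6 mice, intensity trend, moderated F-test and 3 contrasts, Benjamini-Hochberg adjustment over the 13818 genes tested, threshold 0.05). Fold changes are on that log2 scale, which understates changes of low genes. There were 3 residual and 2.77 prior degrees of freedom. The fit was tested on simulated data. Ratios were compared with exact two-sided permutation tests. Other steps used Python 3.11.15 (pandas 2.3.3, numpy 2.4.6, scipy 1.17.1, matplotlib 3.10.9). Gene positions are from GENCODE M21 on GRCm38, in which 47305 of the 47719 identifiers were found.

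All 10 members are named, with Trp53 and Cdkn1a as a check of the labels. From each further list the text draws on genes with an adjusted p under 0.05, those with an unadjusted p under 0.05 against wildtype (at most 6 per list and comparison) and the 2 highest in mean FPKM. Hmox2, Slc3a2 and the ratios of transcripts were chosen after their values were seen. The members and lists were chosen with earlier results of these data known, so counts in a list are no independent evidence of a direction. Alternatives were other pseudocounts, no or a higher filter on low values, quantile normalization, median scaling, no intensity trend, each gene alone, only the 4 mice compared, and leaving out each mouse. The values of the further lists and their genes with 1 mouse left out were added after the data were seen.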

Additional observations from a re-analysis of the deposited data

How the results depend on the processing

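No member passed the adjusted threshold under any alternative tried. No paired analysis was possible because the labels give animal numbers that no 2 genotypes share. For all genes called, homozygous against wildtype mice gave 53 as reported, 4 with no filter on low values, 23 with no intensity trend, 0 with each gene alone, 2 with only the 4 mice compared and 4 to 96 when 1 mouse was left out. Homozygous against heterozygous mice gave 2 as reported, 1 with a pseudocount of 0.01, 1 with a mean FPKM of at least 5, 0 with each gene alone and 0 to 40 when 1 mouse was left out. Heterozygous against wildtype mice gave 0 as reported, 1 with only the 4 mice compared and 0 to 1 when 1 mouse was left out. The F-test gave 14 as reported, 3 with no filter, 4 with quantile normalization, 9 with no intensity trend, 0 with each gene alone and 0 to 9 when 1 mouse was left out.

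The members with an unadjusted p under 0.05 in homozygous against wildtype mice numbered 3 as reported, 1 with quantile normalization (Hmox1), 1 with only the 4 mice compared (Nfe2l2) and 0 to 2 when 1 mouse was left out. Homozygous against heterozygous mice gave 3 as reported, 1 with only the 4 mice compared and 0 to 4 when 1 mouse was left out. The F-test gave 2 as reported, 1 with a pseudocount of 1 or 0.01, 1 with no filter or a mean FPKM of at least 5, 1 with quantile normalization, median scaling or no intensity trend, and 0 to 2 when 1 mouse was left out. The median log2 fold change of the members in homozygous against wildtype mice, -0.07 as reported, ranged from -0.24 (without mouse 47) to 0.09 (without mouse 49) when 1 mouse was left out, so its sign rests on single mice.

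The pathway genes called in homozygous against wildtype mice numbered 3 as reported, 0 with each gene alone and 1 with only the 4 mice compared. Ephx1 also lost its call with no filter on low values and in some of the fits that left out 1 mouse. In homozygous against heterozygous mice the pathway genes called numbered 1 as reported and 0 with each gene alone, and in the F-test 3 as reported and 0 with each gene alone. Members higher without overlap in heterozygous against wildtype mice numbered 2 as reported, 1 with a mean FPKM of at least 5 and 0 with quantile normalization. In homozygous against wildtype mice they numbered 1 as reported, 2 with quantile normalization and 1 to 3 when 1 mouse was left out, and in homozygous against heterozygous mice 2 as reported and 2 to 4 when 1 mouse was left out. Members ordered by allele number and falling numbered 2 as reported and 1 with quantile normalization, and rising 0 as reported and 0 to 1 when 1 mouse was left out. Leaving out a mouse leaves 1 genotype with 1 mouse, which is then assumed to vary like the others. The cause of these changes was not tested.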
